A study of Macaca fascicularis with 22 samples.

Results

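MYOD1, MYF5, MYOG, MYF6, MEF2C, PAX7 and MSTN are 7 genes that control the formation and the size of skeletal muscle. They were found on the array by their RefSeq identifiers, NM_002478 (MYOD1), NM_005593 (MYF5), NM_002479 (MYOG), NM_002469 (MYF6), NM_002397 (MEF2C), NM_002584 (PAX7) and NM_005259 (MSTN), and each was measured by 1 probe, 7 of the 20217 probes in all. RNA of neonatal cynomolgus macaques (Macaca fascicularis) had been hybridised to 22 one-colour rhesus arrays to ask whether birth weight within the normal range goes with gene expression. Low birth weight (LBW) animals were in the 5th to 25th centile and average birth weight (ABW) animals in the 50th to 75th, the difference arising spontaneously with no treatment. There were 4 LBW and 4 ABW arrays of skeletal muscle, 3 and 3 labelled liver, and 4 and 4 labelled umbilical cord. The muscle was a thigh muscle of the biceps group, and the study describes the neonates as female. The sample labels place the sampling at birth and the methods place liver and muscle some days later. The sources used here do not tell which arrays came from the same animal, and arrays of different labels were taken as independent.

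MYOD1, MYF5, MYOG and MYF6 encode the myogenic regulatory factors, basic helix-loop-helix transcription factors that pair with E proteins and switch on muscle genes. MYF5 and MYOD1 commit precursor cells to the muscle lineage, MYOG drives their differentiation into fibres, and MYF6 acts late, in the fibre itself. MEF2C is a MADS-box factor that works beside them, PAX7 marks the satellite cells, the stem cells of muscle, and MSTN encodes myostatin, a secreted relative of the transforming growth factors that restrains muscle growth.

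All levels below are the mean signal of the probe's spots on the log2 scale minus the 75th percentile of that array, so that 0 is the 75th percentile and 1 unit is a doubling. A level belongs to its probe and cannot be set against that of another gene. The scanner software marks a spot as well above background or not, and a probe was counted as above background on an array where at least 1 of its 2 spots was so marked. Tests were made for the 17117 probes above background on 75% or more of the arrays in 1 or more of the 6 groups. Of the 7 genes 6 met this rule and MSTN did not. No spot of the 7 probes was saturated on any array.

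The arrays carried between 14594 and 17887 probes above background. In muscle the ABW arrays filled slide 1 and the LBW arrays slide 2, hence birth weight and slide cannot be told apart there. The LBW arrays labelled cord were all on slide 5 and the ABW ones on slides 4 and 6, so the same holds for that label. Slides 1 and 2 held no array of another label, and muscle and slide cannot be told apart in the tissue differences either. All 7 skeletal fibre markers on the array were higher on every skeletal muscle array than on every other array. All 10 hepatocyte markers separated the other arrays completely, with the higher levels on those labelled umbilical cord, and so did all 6 stroma markers and all 3 smooth muscle markers, with the higher levels on those labelled liver. The defining genes thus go against these labels, and the arrays are called labelled liver and labelled cord throughout.

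MYOD1, MYF5, MYOG, MYF6 and MEF2C were high in skeletal muscle and low on all other arrays, with no overlap for any of the 5. PAX7 was not: its probe was above background on all 22 arrays and highest on those labelled cord. MSTN was at background nearly everywhere, muscle included. Of the 6 genes tested, 5 were higher in skeletal muscle than on the arrays labelled liver at an adjusted p under 0.05 (limma, Benjamini-Hochberg over all 17117 probes), beside 37.1% of all probes. The same 5 were higher than on the arrays labelled cord, beside 35.8% of all probes, and PAX7 was lower, beside 29.1%. MYF5 met the filter through the muscle arrays alone, so that its difference followed from the filter and adds nothing to these counts. The muscle arrays all lay above all those labelled liver for 23.4% of all probes, and above all those labelled cord for 17.9%. In a bulk sample, fewer cells of a type and less RNA per cell cannot be told apart.

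**Figure D1:**
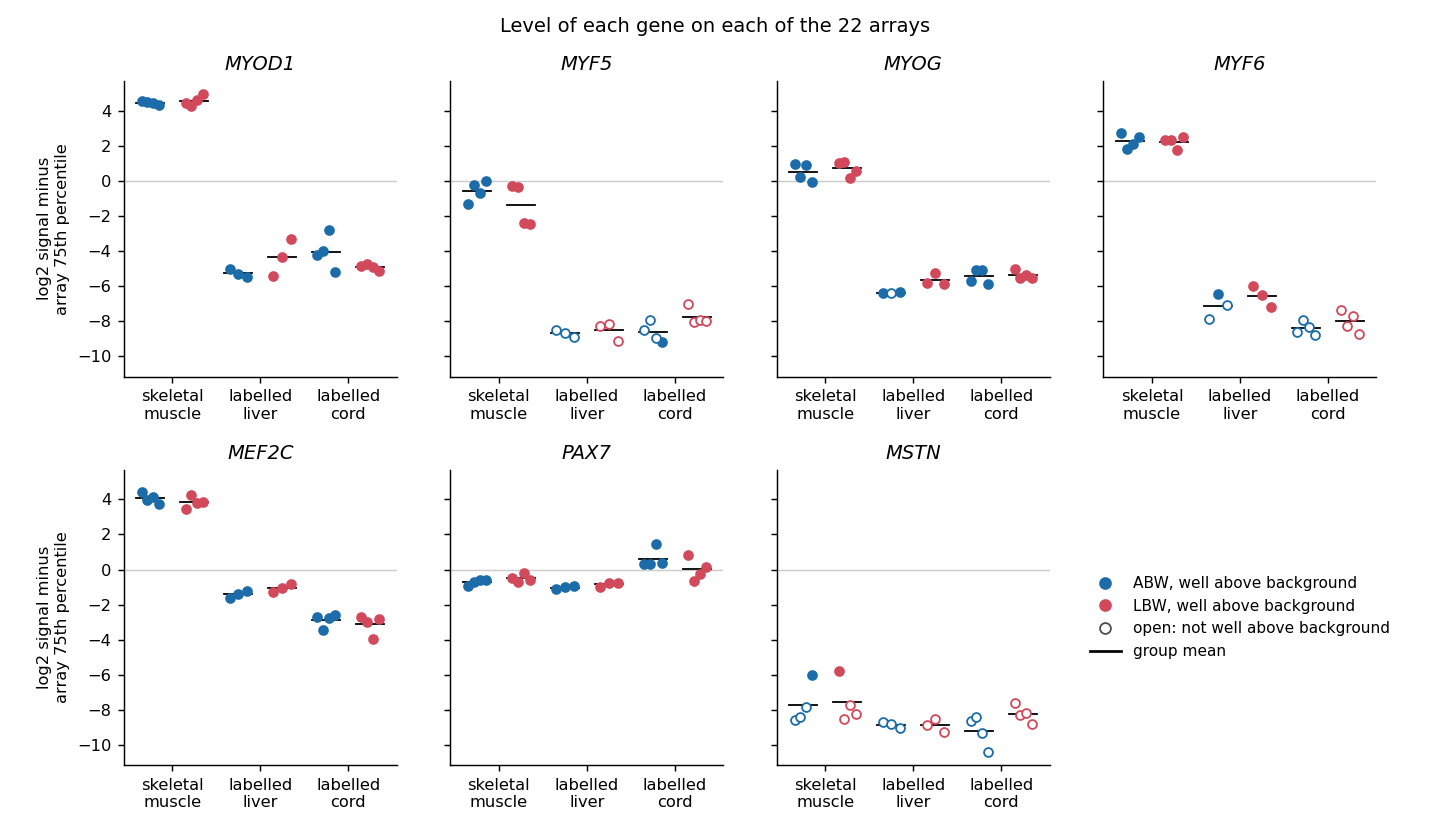
Level of each of the 7 genes on each of the 22 arrays (vertical axis, log2 signal minus the array's 75th percentile), by tissue label, with ABW in blue and LBW in red, open points for arrays not well above background and a line at each group mean. MYOD1, MYF5, MYOG, MYF6 and MEF2C lie higher on all 8 skeletal muscle arrays than on any of the others, PAX7 does not, and MSTN is above background on 2 arrays.

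MYOD1, which starts the muscle programme, stood at 4.55, 4.47, 4.44 and 4.31 on the ABW muscle arrays and at 4.46, 4.26, 4.61 and 4.93 on the LBW muscle arrays. All 8 values lay within a range narrower than 1 unit. Among the arrays labelled liver it stood at -5.00, -5.32 and -5.49 in ABW and at -5.44, -4.34 and -3.32 in LBW, and among those labelled cord at -4.20, -3.99, -2.79 and -5.18 in ABW and at -4.87, -4.75, -4.91 and -5.13 in LBW. These levels were far below muscle and yet above background on every array. Muscle exceeded the arrays labelled liver by 9.32 ± 0.31 (SE, adjusted p = 1.4e-15) and those labelled cord by 8.98 ± 0.28 (adjusted p = 2.7e-16), which are folds of 639 and 505. The lower levels did not differ detectably from each other, the arrays labelled liver minus those labelled cord being -0.34 with a 95% interval from -0.98 to 0.30 (adjusted p = 0.34).

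MYF5, the other factor of early commitment, was the most variable of the 6 genes tested in muscle, with an SD of 0.99 over the 8 arrays against 0.21 to 0.45 for the other 5. Its ABW muscle levels were -1.34, -0.21, -0.71 and 0.02, and its LBW muscle levels -0.31, -0.35, -2.42 and -2.47. LBW replicates 3 and 4 were thus the lowest of the 8, and the other LBW arrays lay inside the ABW range. It was above background on none of the 6 arrays labelled liver and on 1 of the 8 labelled cord (ABW replicate 4, on 1 spot). With each array's lowest signal above background put in place of dimmer values, muscle was 49.7-fold higher than the arrays labelled liver and 45.5-fold higher than those labelled cord. Both are given without a test and hold for this background subtraction only.

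MYOG, which encodes myogenin, stood at 0.96, 0.22, 0.89 and -0.05 on the ABW muscle arrays and at 1.03, 1.09, 0.17 and 0.57 on the LBW muscle arrays. The groups overlapped widely. Its levels lay between -6.42 and -5.25 on the 6 arrays labelled liver, of which 5 were above background, and between -5.90 and -5.02 on the 8 labelled cord, all above background. Muscle exceeded these by 6.62 ± 0.21 (SE, adjusted p = 8.9e-16) and 6.02 ± 0.19 (adjusted p = 3.6e-16), or 98.1-fold and 64.7-fold. The arrays labelled liver lay below those labelled cord by a difference of -0.60 ± 0.21 (adjusted p = 0.016 in limma). This did not pass with normexp background correction at an offset of 50 (adjusted p = 0.17), spike-in scaling (0.12) or the first spot alone (0.063).

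MYF6, also known as MRF4 and active in formed fibres, stood at 2.74, 1.79, 2.09 and 2.50 on the ABW muscle arrays and at 2.32, 2.31, 1.74 and 2.52 on the LBW muscle arrays. It was above background on no array labelled cord and on 4 of 6 labelled liver, the 3 LBW arrays and ABW replicate 2. On 3 of these 4 only 1 of the 2 spots was so marked, and the level on all 6 lay between -7.90 and -6.01. With the dimmer arrays at the same floor, muscle was 425-fold higher than the arrays labelled cord and 429-fold higher than those labelled liver. Both folds hold for this background subtraction only. On the values without a floor limma gave an adjusted p of 4.7e-18 and 3.2e-16. The former set muscle against values at background on every array labelled cord, so that its size says little.

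MEF2C, the partner of the helix-loop-helix factors, stood at 4.40, 3.98, 4.15 and 3.74 on the ABW muscle arrays and at 3.48, 4.24, 3.80 and 3.88 on the LBW muscle arrays. It was above background on both spots of all 22 arrays. The arrays labelled liver, between -1.62 and -0.84, all lay above those labelled cord, between -3.94 and -2.59, as they did for 19.3% of all probes. Muscle was 36.3-fold higher than the former (5.18 ± 0.20 in log2, SE, adjusted p = 1.8e-14) and 124-fold higher than the latter (6.95 ± 0.19, adjusted p = 3.0e-17). The arrays labelled liver exceeded those labelled cord by 1.77 ± 0.20 (adjusted p = 1.8e-07), where 31.3% of all probes were higher. With each array scaled to its spike-in controls this difference was 1.20 and no longer passed (adjusted p = 0.11).

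PAX7, the satellite cell factor, stood at -0.96, -0.73, -0.58 and -0.59 on the ABW muscle arrays and at -0.49, -0.70, -0.18 and -0.57 on the LBW muscle arrays. The 6 arrays labelled liver lay between -1.10 and -0.74, within and just below the muscle values. The arrays labelled cord stood at 0.32, 0.33, 1.47 and 0.40 in ABW and at 0.86, -0.64, -0.24 and 0.16 in LBW, and 2 of them overlapped muscle. Muscle minus the arrays labelled cord was -0.93 ± 0.20 (SE, adjusted p = 0.00037), and the arrays labelled liver minus those labelled cord -1.26 ± 0.22 (adjusted p = 3.3e-05, where 35.6% of all probes were lower). The difference of muscle and the arrays labelled liver, 0.33 with a 95% interval from -0.12 to 0.78, did not pass (adjusted p = 0.19) and turned to -0.39 with spike-in scaling.

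MSTN gave signals of 2.06, 1.79, 3.42 and 10.5 on the ABW muscle arrays and of 12.9, 1.70, 1.72 and 2.42 on the LBW muscle arrays, before scaling. ABW replicate 4 and LBW replicate 1 were above background, the former on 1 spot and the latter on both, and the other 6 muscle arrays were not. On the 14 arrays labelled liver or cord the signals lay between 1.40 and 2.21 and none was above background. The lowest signal above background on an array lay between 6.28 and 10.3. The share of 2 of 8 muscle arrays against 0 of 14 others did not pass Fisher's exact test (two-sided, p = 0.12), and MSTN is given no fold. Without the filter, limma called it higher in muscle than on both other kinds of array (adjusted p = 0.020 and 0.028), on differences of 1.24 and 1.08 between values mostly below background. The share of all probes called without the filter is not given here.

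The size of these tissue differences depended on how dim signals were treated. The normexp background correction of the uncorrected signals added 50 to each corrected signal, which shrinks folds between bright and dim ones. With it muscle exceeded the arrays labelled liver 200.4-fold for MYOD1, 8.46-fold for MYF5, 18.3-fold for MYOG, 59.9-fold for MYF6 and 30.2-fold for MEF2C. Over the arrays labelled cord the corresponding folds were 155, 6.80, 14.1, 53.1 and 67.5. MYOD1, MYOG, MYF6 and MEF2C remained called in both comparisons under this correction. So did MYF5, which followed from the filter. The share of all probes called under this correction is not given here.

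The genes that the factors control followed the same division. Of 21 probes on the list of targets and differentiation genes, 19 were higher in muscle than on the arrays labelled liver and none lower, beside 37.1% and 28.1% of all probes, with a median difference of 8.32 in log2 against 0.21 over all probes. Of these 19 probes 6 met the filter through the muscle arrays alone and had to differ. MYH7, a slow myosin heavy chain, and MYOT, a protein of the Z disc, were among those that differed most. With dim arrays at their floor their differences were 15.09 and 13.67. ACTC1, cardiac actin, at -1.66 (adjusted p = 0.058) and DES, desmin, at 0.54 (adjusted p = 0.46) did not pass. In the comparison with the arrays labelled cord 20 were higher, the same 6 among them, beside 35.8% of all probes and with a median of 9.94 against 0.11. The remaining probe was lower, beside 29.1%, and belonged to CHRNG, the fetal subunit of the acetylcholine receptor, at -6.73 (adjusted p = 1.7e-14 in limma).

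The 19 probes of the list of further myogenic factors and their partners were divided. Against the arrays labelled liver 8 were higher in muscle and 7 lower, beside 37.1% and 28.1% of all probes, with a median of 0.13. Against those labelled cord 14 were higher and 3 lower, beside 35.8% and 29.1%, with a median of 1.37. In both comparisons 4 of the higher probes had met the filter through muscle alone. EYA1, a coactivator upstream of the myogenic factors, differed most, by 6.72 in log2 from the arrays labelled liver with dim arrays at their floor. None of those arrays was above background. TWIST1, an inhibitor of MYOD1, was lower in muscle than on the arrays labelled liver, at -5.06, and so was MYOCD, a coactivator of smooth muscle genes, at -4.26 with dim arrays at their floor. ID2, which sequesters E proteins, was lowest in muscle relative to the arrays labelled cord, at -3.84.

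Of 22 probes for the myostatin and activin pathway, 6 were higher in muscle than on the arrays labelled liver and 11 lower, beside 37.1% and 28.1% of all probes, with a median of -0.43. TRIM63, a ubiquitin ligase of muscle atrophy, was 4.96 higher and WFIKKN2, a secreted binder of myostatin, 3.60 higher. INHBA, a subunit of activin, was lower, at -7.02 with dim arrays at their floor, and so was a probe of FST, the antagonist follistatin, at -3.79. Relative to the arrays labelled cord 10 were higher and 6 lower, beside 35.8% and 29.1% of all probes, led by FBXO32, another ligase of muscle atrophy, at 6.27 and by another probe of FST at -5.57. The 7 probes of the satellite cell list held 4 higher and 2 lower in the former comparison and 5 higher and 2 lower in the latter, beside the same shares of all probes. CXCR4, a chemokine receptor, was among the higher ones, at 2.19 and 3.02. The 2 lower probes of each comparison are not named here, and CXCR4 does not stand for the list. PAX7, the satellite cell factor, differed by 0.33 from the arrays labelled liver, which did not pass, and was lower than on those labelled cord, at -0.93.

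**Figure D2:**
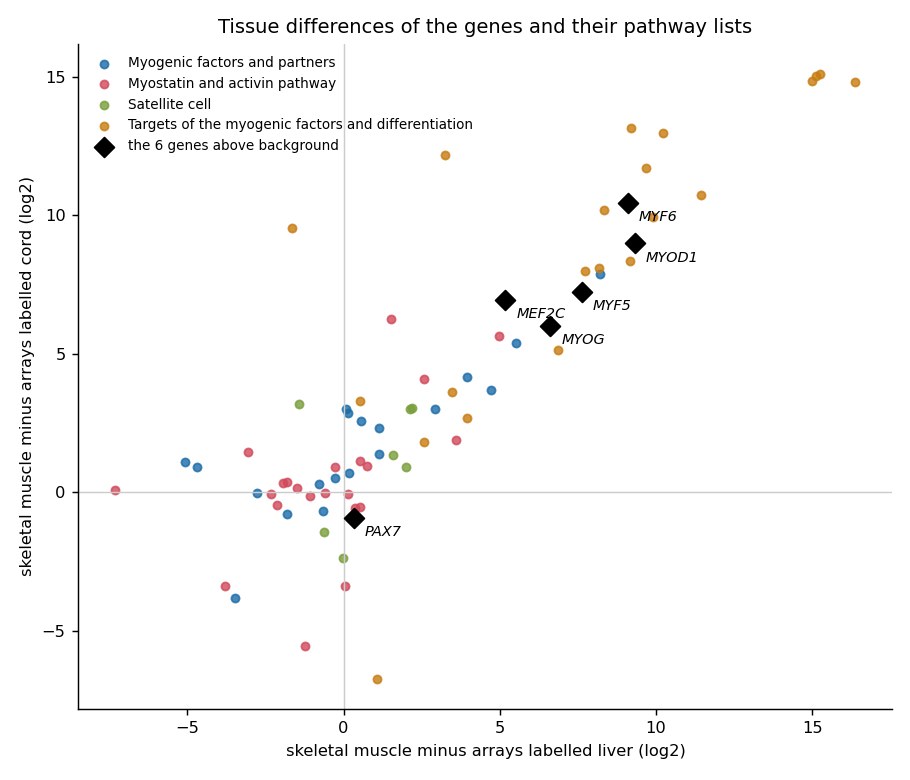
Differences of skeletal muscle from the arrays labelled liver (horizontal axis, log2) and from those labelled cord (vertical axis, log2) for the 6 genes tested (black diamonds) and the probes of 4 pathway lists (coloured points), as measured, without a floor for dim arrays. MYOD1, MYF5, MYOG, MYF6 and MEF2C lie to the upper right with most targets, and PAX7 lies near 0.33 and -0.93.

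The probes most alike in pattern were sought by the Pearson correlation over the 22 arrays, a description in which the division of muscle from the rest has most weight. For MYOG these were NM_032578, XR_013608 and NM_014370, each at r = 0.99, for MYOD1 NM_005061, NM_001958 and NM_033337, each at 0.99, and for MYF6 a probe without an identifier, NM_001011515 and NM_152372, each at 0.99. For MYF5 they were XR_010349, NM_153235 and NM_139166, at 0.99 each, and for MEF2C a pair of probes of the transcript CN802373, at 0.998 and 0.995, and NM_030913 at 0.993. PAX7 had lower values, 0.951 for NM_003936, 0.949 for NM_022372 and 0.940 for NM_032732.

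LBW and ABW muscle did not differ detectably at any of these genes. None of the 6 genes tested passed at an adjusted p under 0.05, beside 0.0% of all 17117 probes. None had even an unadjusted p under 0.05, by limma or by the methods' t-test, where limma gave 14.7% of all probes such a p and 12.2% a difference of 1.5-fold or more besides. For none did the LBW and ABW values part, while every LBW array was above every ABW array for 8.61% of all probes and below for 1.92%. LBW minus ABW was 0.12 for MYOD1 (95% interval -0.31 to 0.55), 0.21 for MYOG (-0.48 to 0.89), -0.06 for MYF6 (-0.65 to 0.53), -0.22 for MEF2C (-0.72 to 0.28) and 0.23 for PAX7 (-0.19 to 0.65). The adjusted p lay between 0.61 and 0.94 for these 5. All 5 intervals lay within 2-fold in either direction. With single arrays left out MYOG ranged from 0.023 (without ABW replicate 4) to 0.39, MEF2C from -0.35 to -0.096 (without LBW replicate 1) and PAX7 from 0.13 (without LBW replicate 3) to 0.30.

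The difference of MYF5 was larger and less certain, -0.83 with an interval from -2.11 to 0.46 (adjusted p = 0.55, exact permutation p = 0.29, two-sided, where 4 against 4 allow no less than 0.029). It rested on LBW replicates 3 and 4, and without either the difference was -0.48 or -0.47. The spots of the probe also disagreed on ABW replicate 1, with signals of 59.9 and 574, 9.57-fold apart. On this array 34 of 14995 probes with both spots above background were at least 8-fold apart, against 0 to 11 probes on the other muscle arrays. On LBW replicate 3 the spots gave 63.4 and 70.8 and on LBW replicate 4 they gave 104 and 158, so that both spots were low there. With the first spot alone the difference was -0.40 and with the second alone -0.90.

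**Figure D3:**
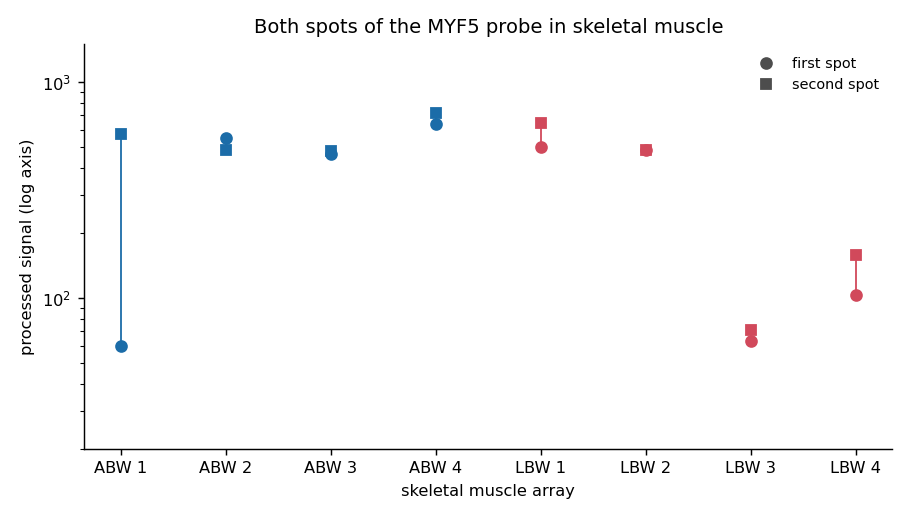
Processed signal of both spots of the MYF5 probe (vertical axis, log scale) on the 8 skeletal muscle arrays, ABW in blue and LBW in red, circles for the first spot and squares for the second, joined by a line. On ABW replicate 1 the spots are 9.57-fold apart, and on LBW replicates 3 and 4 both are low.

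Of the marker genes of other cells in muscle, all 6 of stroma had the lower mean in LBW, with a median difference of -0.99 against 0.07 over all probes. None of them passed and 4 had an unadjusted p under 0.05, beside 14.7% of all probes. Their mean level was between 1.61 and 2.71 on the ABW arrays and between 0.87 and 1.91 on the LBW arrays. The mean level of the skeletal fibre markers lay between 8.16 and 8.58 in ABW and between 8.30 and 9.19 in LBW, and that of the hepatocyte markers between -5.82 and 0.26 and between -6.28 and -1.17. All 7 fibre markers and all 4 heart muscle markers had the higher mean in LBW muscle, with median differences of 0.18 and 0.72, and all 3 smooth muscle markers the lower, with a median of -0.54. None of these passed either. The part of these markers in the differences above was not tested. Scaling to the spike-in controls moved the median difference of all probes in muscle to -0.39, and MYOD1, MYOG and PAX7 then lay below 0.

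On the arrays labelled liver 4 of the genes, MYOD1, MYOG, MEF2C and PAX7, were above background in both birth weight groups. All 4 had the higher mean in LBW, though MYOD1 did not within slide 3, and none passed, beside 0.0% of all probes. MYOG came nearest: its LBW values of -5.82, -5.25 and -5.88 lay above its ABW values of -6.37, -6.42 and -6.31, by 0.72 (interval 0.19 to 1.25, unadjusted p = 0.015, adjusted p = 0.81 in limma). The exact permutation p was 0.10, the smallest that 3 against 3 can give. Every LBW array was above every ABW array for 8.82% of all probes, 5.99% had an unadjusted p under 0.05, and 4.71% had this and a difference of 1.5-fold or more. ABW replicate 2 was not above background, and ABW replicates 1 and 3 were so on 1 of 2 spots. The LBW arrays were above background on both spots. With normexp background correction the difference of MYOG was 0.10. Its signals here lay between 9.57 and 21.6 before scaling, and the offset of 50 in that correction shrinks differences among such dim signals.

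MYOD1 on the arrays labelled liver differed by 0.90 (interval -0.33 to 2.14, adjusted p = 0.88), MEF2C by 0.36 (-0.13 to 0.85) and PAX7 by 0.19 (-0.23 to 0.60). The difference of MYOD1 was 0.38 without LBW replicate 3 and 1.44 without LBW replicate 1. Slide 3 held all ABW arrays and LBW replicate 1, and slide 4 held LBW replicates 2 and 3. Within slide 3 the difference of MYOD1 was -0.17, that of MYOG 0.55, that of MEF2C 0.15 and that of PAX7 0.003, from a single LBW array. The mean level of the skeletal fibre markers was between -1.98 and -1.58 on the ABW arrays labelled liver and between -1.44 and -0.90 on the LBW arrays, and its part in these differences was not tested. MYF5 and MYF6 were too dim in at least 1 of the groups for a difference.

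On the arrays labelled cord the same 4 genes were above background in both groups and none passed, beside 0.625% of all probes. The difference of MYOD1 was -0.87 (interval -1.87 to 0.12, adjusted p = 0.59). Its ABW arrays of slide 4, replicates 1 and 2 at -4.20 and -3.99, and ABW replicate 3 on slide 6 lay above all LBW arrays, while ABW replicate 4 on slide 6 lay below them. With the ABW arrays of slide 4 alone the difference was -0.82 and with those of slide 6 alone -0.93, each against the LBW arrays of slide 5. It was -0.46 without ABW replicate 3 and -1.25 without ABW replicate 4. With normexp background correction and its offset of 50 it turned to 0.20. The arrays of slide 6 also differed from all others in the feature extraction protocol, and their negative control signal was 17.1 and 16.7 against 29.2 to 35.3 elsewhere. PAX7 differed by -0.59 (-1.49 to 0.30), with -0.29 against slide 4 alone and -0.31 without ABW replicate 3, MEF2C by -0.24 (-1.02 to 0.55) and MYOG by 0.07 (-0.60 to 0.74). MYF5, dim in both groups, was the only gene with an unadjusted p under 0.05 there, beside 8.94% of all probes (8.93% with 1.5-fold or more), and it is given no fold. Its adjusted p in limma was 0.55. The fibre markers lay between -4.04 and -3.85 on 3 ABW arrays labelled cord and at 0.24 on ABW replicate 2, where MYOD1 was at -3.99. On the LBW arrays they lay at -1.63 on replicate 1, where MYOD1 was at -4.87, and between -3.72 and -3.47 on the other 3.

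**Figure D4:**
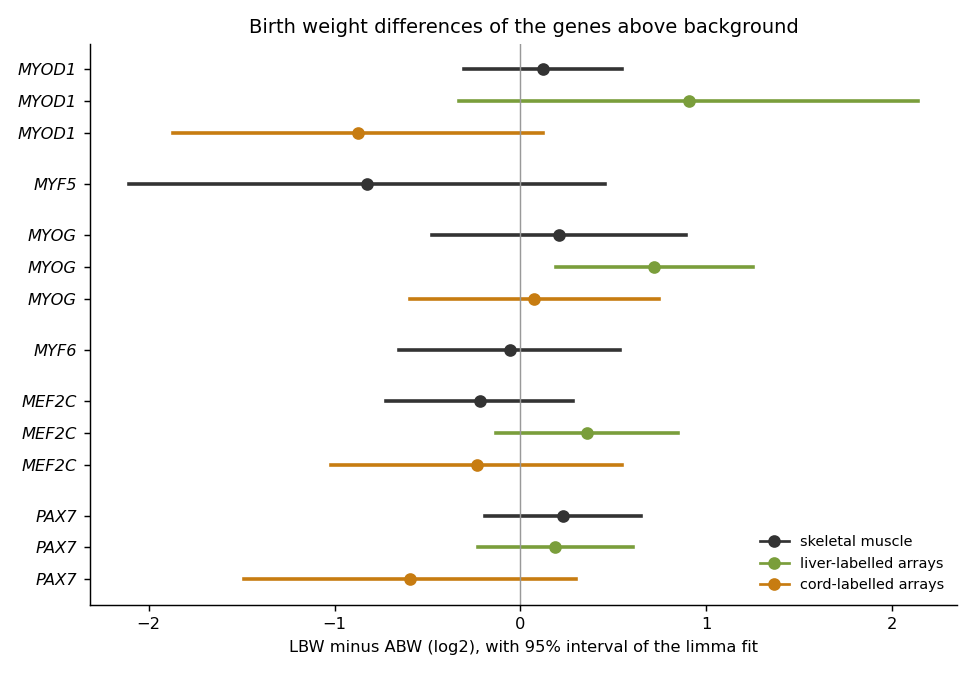
LBW minus ABW (horizontal axis, log2) with the 95% interval of the limma fit for each gene above background in both groups, in skeletal muscle (dark), labelled liver (green) and labelled cord (orange). Every interval but that of MYOG on the arrays labelled liver includes 0, and MYF5 in muscle has the widest.

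Whether the birth weight difference itself varied with the tissue label was tested by an interaction term over all 22 arrays. None of the 4 genes above background on most arrays of each of the 6 groups, MYOD1, MYOG, MEF2C and PAX7, passed, beside 1.01% of all probes. MYOD1, at 0.12 in muscle, 0.90 in the liver label and -0.87 in the cord label, had an unadjusted p of 0.027 and an adjusted p of 0.39 in limma. The other 3 had adjusted p-values between 0.63 and 0.84. MYF5 and MYF6 are given no result here, since their values outside muscle were mostly background.

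The pathway lists held no probe that passed for birth weight in any label. In muscle the median difference was 0.08 over the 19 probes of further myogenic factors, 0.17 over the 21 of targets, 0.33 over the 7 of satellite cells and 0.39 over the 22 of the myostatin and activin pathway, against 0.07 over all probes. Of the last list 15 differences lay above 0 and 5 had an unadjusted p under 0.05, beside 14.7% of all probes. For 5 of the 22 every LBW array was above every ABW array, beside 8.61% of all probes. GDF11, the close relative of myostatin, had the largest difference, 1.28 ± 0.22 (SE, unadjusted p = 0.00021, adjusted p = 0.089 in limma), and a probe of FST followed at 0.67 ± 0.23 (adjusted p = 0.21). SMAD3, which carries the signal of these ligands to the nucleus, and INHBA were lowest, at -0.67 and -0.29. Among the targets ACTC1 was lowest at -1.79 and CHRNG highest at 0.76, and among the further factors TWIST1 was lowest at -0.63 and HDAC4, which represses MEF2 factors, highest at 0.59, all short of the threshold.

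**Figure D5:**
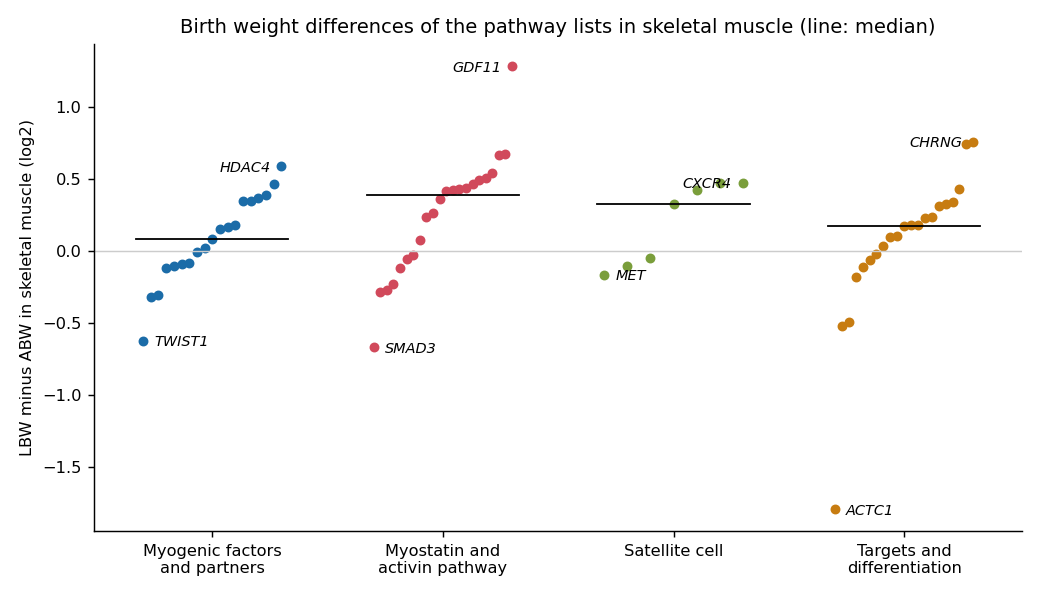
LBW minus ABW in skeletal muscle (vertical axis, log2) for each probe of 4 pathway lists, ordered within the list, with a line at the list's median and the lowest and highest probe named. No probe passed, and GDF11 at 1.28 and ACTC1 at -1.79 lie farthest from 0.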

How the data were processed

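The deposited scanner files hold fluorescence intensities of each spot, which the authors produced with Agilent Feature Extraction. The software had subtracted the background and detrended each array, and arrays had not been scaled to each other. A further table deposited by the authors holds log2 values from GeneSpring GX, scaled by the 75th percentile with a baseline subtracted, and served as an alternative only. The normexp alternative added an offset of 50 to each corrected signal, which shrinks differences among dim signals. The spots of a probe were averaged, leaving out a spot marked as an outlier where the other was not, and log2 values were reduced by the array's 75th percentile. LBW was set against ABW within each label with limma 3.58.1 in R 4.3.3, and tissue differences and interactions came from a fit of the 6 groups. Adjustment of p-values followed Benjamini and Hochberg. Fisher's test used scipy 1.17.1, the exact permutation test went over all divisions of the arrays into groups, and the fits were tested on simulated data. The number of arrays limits the precision, and p-values set a difference against the spread between arrays of a group. In muscle the arrays of a group shared a slide, so that this spread holds no difference between slides.

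All 7 genes are named. Of each pathway list, probes with the highest or lowest differences are named, with some left out, and 1 gene of these lists is not reported here, though the counts include it. Symbols of list genes were assigned through human RefSeq identifiers, of which 9 were also found in the study's supplement and 7 with the same symbol there. The 3 most alike probes were sought for each gene kept by the filter and above background on at least 6 of 8 muscle arrays. The genes and lists were chosen with earlier results of these data known. Marker lists of endothelium, heart muscle, fat, blood and Schwann cells were measured too and no probe of them passed for birth weight. Probe sequences were not used here.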

Additional observations from a re-analysis of the deposited data

Results flagged for a closer look

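Among 20 sets of 4 arrays in which a gene was above background, 1 held an array far from the others. PAX7 stood at 1.47 on ABW replicate 3 labelled cord, where the other ABW arrays lay between 0.32 and 0.40, and the gap was 0.927 of the whole range, past the limit for 4 values in Dixon's test. Chance alone sets apart about 1 in 20 such sets. This array and ABW replicate 4 shared slide 6 and a feature extraction protocol that no other array had.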

How the results depend on the processing

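None of the 14 birth weight differences of single genes passed under any of the 306 values recomputed, the lowest adjusted p being 0.27. By an unadjusted p under 0.05 and at least 1.5-fold, limma called 1 gene in the liver label (MYOG), beside 4.71% of all probes. It called 1 in the cord label (MYF5, dim in both groups), beside 8.93%, in place of 0 in each. Leaving out each array in turn left 0 genes called for birth weight in every label and 0 for the interaction. It left 5 called against the arrays labelled liver and 6 against those labelled cord. Both counts include MYF5, which followed from the filter, and the 6 include PAX7, which was lower. With all arrays 37.1% of all probes were higher in muscle than on the arrays labelled liver and 28.1% lower. Against those labelled cord the shares were 35.8% and 29.1%. Spike-in scaling turned MYOD1 in muscle to -0.33, MYOG in muscle to -0.24, PAX7 in muscle to -0.22, MYOG on the arrays labelled cord to -0.36 and PAX7 in muscle against the arrays labelled liver to -0.39. The slide block and slide 3 alone turned MYOD1 on the arrays labelled liver to -0.17. Normexp turned MYOD1 to 0.20 and MEF2C to 0.14 on the arrays labelled cord, and the first spot alone turned MYOG there to -0.11. With single arrays left out, MYOD1 in muscle ranged from -0.00051 to 0.22, MYF6 in muscle from -0.22 to 0.10, and on the arrays labelled cord MYOG from -0.078 to 0.20 and MEF2C from -0.43 to 0.039. The cause was not tested. MYOG on the arrays labelled liver against those labelled cord, -0.60 with an adjusted p of 0.016 in limma, did not pass with normexp, spike-in scaling or the first spot alone. The alternatives by single spots, by slides alone and of this last contrast were chosen after seeing the data.

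Same-numbered replicates did not vary together (correlations of their deviations from -0.22 to 0.30), and a replicate block changed no call: 0 genes passed for birth weight in each label with the block in the fit.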
